A study of Mus musculus with 6 samples.

Results

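ATP-binding cassette (ABC) transporters were described in 6 bulk RNA libraries of mouse bone marrow cells. Members were all protein-coding genes of the count table, by GENCODE M21, whose symbol is Abca, Abcb, Abcc, Abcd, Abce, Abcf or Abcg followed by a number. This gave 50 genes of 21897 protein-coding rows and 55401 rows in all: 16 in subfamily A, 10 in B, 10 in C, 4 in D, 1 in E, 3 in F and 6 in G. The LSK group (3 libraries) held Lin-Sca-1+c-Kit+ cells from the marrow of untreated wild-type C57BL/6 mice aged 6 to 8 weeks, the fraction with the blood stem and multipotent progenitor cells. The ESC-derived group (3 libraries) held Lin-Sca-1+c-Kit- cells sorted from the marrow of primary recipients that had been given CD144+ cells, made by differentiation of wild-type embryonic stem cells (ESCs). Each library came from 2000 sorted cells. The strain, age and conditioning of the recipients, and any marker that told donor from host cells, are not stated in the labels. Both groups come from marrow, and the groups differ in the c-Kit gate as well as in origin, so gate and origin cannot be told apart.

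ABC proteins bind and hydrolyse ATP, and most of them use it to move a substrate across a membrane. Blood stem cells are known for dye efflux: Abcg2 pumps out Hoechst dye and so makes the dim side population, and the P-glycoproteins Abcb1a and Abcb1b pump out rhodamine dye. Other members export cholesterol (Abca1, Abcg1) or drug and glutathione conjugates (Abcc1), or work in peroxisomes (Abcd2, Abcd3), mitochondria (Abcb8, Abcb10) and lysosomes (Abcb9). Members of subfamilies E and F have no membrane part and act on ribosomes.

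Total counts ran from 41580006 to 49269286 per library. Genes of other blood cells differed between the groups, and values for whole marker lists are given here since they go with every difference described below. Of all genes tested, 14.8% were called higher and 15.2% lower in ESC-derived cells. All 16 T cell markers and all 12 NK and cytotoxic lymphocyte markers rose in ESC-derived cells, where the summed T cell level was 15230 to 16060 CPM (counts relative to library size, scaled by TMM), against 242 to 284 CPM in LSK cells. Of 12 stem cell markers, 11 fell, from a summed 2136 to 2238 CPM in LSK to 0.428 to 10.0 CPM in ESC-derived cells, and Hoxa9 had 0 counts there. B cell markers (8 of 11 tested) and plasma cell markers (8 of 10 tested, with 1 called higher) fell. The plasma cell markers went from a summed 15720 to 20620 CPM to 264 to 325 CPM. Of these lists, Igll1 and Tnfrsf17 were at 0 in ESC-derived cells. Neutrophil markers were called in both directions (6 higher and 2 lower of 12). Megakaryocyte (5 of 7), dendritic cell (6 of 10, with 1 called higher) and endothelial markers (5 of 9) were mostly called lower. The neutrophil markers summed to 1273 to 1436 CPM in LSK and 2211 to 4357 CPM in ESC-derived cells. Mast cell, basophil and eosinophil markers (2 higher and 3 lower of 8 tested) summed to 103 to 235 CPM and, with a wide spread, 75.3 to 1381 CPM. Of 6 tested stroma markers, 1 was lower. Thus the libraries labelled Lin-negative held T cell transcripts in the ESC-derived group and plasma cell transcripts in the LSK group. In bulk samples, fewer cells of a type and less RNA per cell cannot be told apart, and the part of these cell types in the results below was not tested. LSK replicate 2 stood between LSK replicates 1 and 3 in 64.5% of the 12212 genes with a mean of at least 100 counts, whereas the middle library of the ESC-derived group was replicate 2 in 37.7%. If LSK replicate 2 is not an independent sample, the LSK spread is too small, so calls of members are also given without it. The marker list counts were not repeated without it. Nothing in the labels says that the libraries of a group came from separate mice, so p-values measure the spread between these libraries.

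The summed level of the family overlapped between the groups, but the sums of several roles did not, and single members differed by up to 45.0-fold. The summed level of the 50 members was 636, 642 and 686 CPM in LSK replicates 1 to 3 and 677, 609 and 746 CPM in ESC-derived replicates 1 to 3, and the groups overlap. Within this sum, the group mean of Abcb9 alone rose from 3.1 to 140 CPM. Dye efflux pumps summed to 51.3 to 52.4 CPM in LSK and only 8.5 to 14.8 CPM in ESC-derived cells. Sterol and phospholipid exporters summed to 57.1 to 71.0 and 26.9 to 36.1 CPM, and peroxisomal and vitamin B12 members were also lower. The mitochondrial and lysosomal group, which includes Abcb9, was higher, and the ranges of the other roles overlapped. At 1 CPM or more in all 3 libraries of a group, 25 members were detected in LSK and 19 in ESC-derived cells. The 19 were all among the 25, and the other 6 were Abca1, Abcb4, Abcb6, Abcb10, Abcc3 and Abcg2. Of these, Abcb4, Abcb6 and Abcc3 overlapped between the groups and were not called. Abcb6 reached 11.2 CPM and Abcc3 1.84 CPM in ESC-derived replicate 3, and Abcb4 2.27 CPM in ESC-derived replicate 2. The same count was not made over all genes. A filter on low counts left 29 members for testing. The edgeR quasi-likelihood test called 8 of them at an adjusted p below 0.05, 2 higher (Abcb9 and Abce1) and 6 lower in ESC-derived cells (among them Abcg2, Abca1, Abcb10, Abcc1 and Abcg1), and 21 were not called. The shares, 27.6% of tested members in all, 6.9% higher and 20.7% lower, stand beside 30.0% of the 16211 genes tested, 14.8% higher and 15.2% lower, so calls were about as frequent among members as among all genes. The median log2 fold change (ESC-derived minus LSK) was -0.56 over tested members and -0.07 over all genes tested. The CPM of the 2 groups did not overlap for 13 of 29 tested members (44.8%) and for 49.8% of all genes tested. Without LSK replicate 2, 4 members were called, Abcb9 and Abce1 as higher and Abcg2 and Abca1 as lower. Without LSK replicate 1 the same 4 were called.

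**Figure D1:**
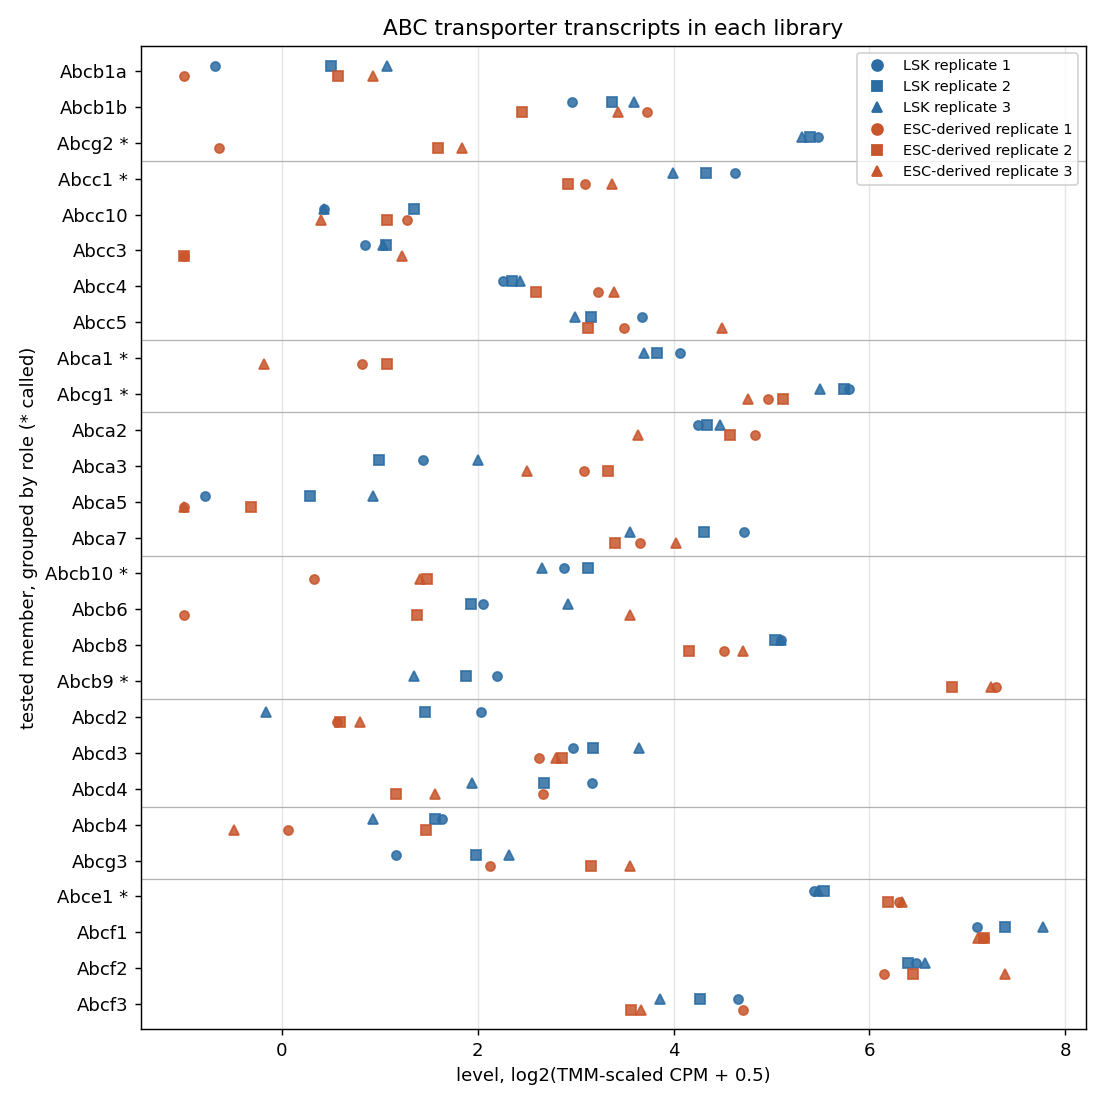
Level of 27 tested members in each library, as log2(TMM-scaled CPM + 0.5), grouped by role with lines between roles; colour gives the group, symbol shape the replicate, and a star a call at an adjusted p below 0.05. The ESC-derived points of Abcg2 and Abca1 lie left of the LSK points and those of Abcb9 far to the right, while the points of Abcb1b overlap.

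Promoter windows are shown for the 3 members with the largest called differences, Abcg2, Abca1 and Abcb9, from 250 bases before to 50 bases after the annotated start (RefSeq, build GRCm38.p6, gene strand, 5′ to 3′). A window was at hand for 38 of the 50 members. Capitals mark the letters TATAAA, 41 bases after the start, in Abcg2 (chr6:58584283-58584582, plus strand), a direct repeat of the kind that LXR nuclear receptors bind in Abca1 (chr4:53159846-53160145, minus strand), and GGGCGG on either strand in Abcb9 (chr5:124095749-124096048, minus strand).
Abcg2: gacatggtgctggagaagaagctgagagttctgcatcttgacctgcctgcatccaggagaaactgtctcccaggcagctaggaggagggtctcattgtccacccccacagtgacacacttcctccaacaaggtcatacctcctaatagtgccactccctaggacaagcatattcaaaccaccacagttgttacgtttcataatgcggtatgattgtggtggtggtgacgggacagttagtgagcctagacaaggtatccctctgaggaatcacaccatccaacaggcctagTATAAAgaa
Abca1: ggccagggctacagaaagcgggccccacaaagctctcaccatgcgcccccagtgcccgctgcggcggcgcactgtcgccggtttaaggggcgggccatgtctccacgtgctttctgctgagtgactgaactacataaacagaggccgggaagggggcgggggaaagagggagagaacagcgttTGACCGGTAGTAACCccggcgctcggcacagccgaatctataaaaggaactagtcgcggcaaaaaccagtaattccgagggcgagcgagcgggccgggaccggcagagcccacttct
Abcb9: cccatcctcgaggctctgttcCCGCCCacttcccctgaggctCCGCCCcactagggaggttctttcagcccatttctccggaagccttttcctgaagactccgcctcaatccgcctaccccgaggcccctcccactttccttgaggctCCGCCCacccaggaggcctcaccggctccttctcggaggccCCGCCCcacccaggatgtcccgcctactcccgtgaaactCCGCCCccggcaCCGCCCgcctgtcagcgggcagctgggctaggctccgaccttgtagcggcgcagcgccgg

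The Abca1 window also holds TATAAA, 29 bases before the start, GGGCGG, 163 and 97 bases before it, and CACGTG, 147 bases before it. Each motif was searched on both strands over all 27025 windows of 300 bases. The direct repeat was searched as GGTNANNNNNGGTCA, a form relaxed after the Abca1 window had been seen, and was found in 52 windows (0.192%), of which Abca1 was the only member, 67 bases before the start. The stricter AGGTNANNNNAGGTCA was found in 9 windows (0.0333%) and in no window of a member. GGGCGG, the GC box, was present in 35.9% of all windows and in 17 of 38 member windows (44.7%). It occurred 6 times in Abcb9, and 1.36% of all windows held 6 or more, a cutoff equal to the Abcb9 count. CCAAT was present in 37.9% of all and 36.8% of member windows, TATAAA in 14.2% and 15.8%, the dioxin receptor core GCGTG in 32.5% and 34.2%, and the E-box CACGTG in 7.24% and 15.8%. None of these letters overlap another motif's letters in the 3 windows shown, and a match describes the sequence only.

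Among the dye efflux pumps, Abcg2 fell and the P-glycoprotein genes were not called. Abcg2 (ENSMUSG00000029802, mm10 chromosome 6, 58584523 to 58695676, plus strand) stood at 43.9, 41.6 and 39.2 CPM in LSK replicates 1 to 3 and at 0.143, 2.53 and 3.08 CPM in ESC-derived replicates 1 to 3. The LSK libraries lay close together and every ESC-derived library was far below them, with ESC-derived replicate 1 the lowest. The mean fell from 41.6 ± 2.34 to 1.92 ± 1.56 CPM (SD; each group mean has n = 3), and the log2 fold change was -4.43 ± 0.93 (SE, edgeR adjusted p = 0.0127), and Abcg2 was called in all 15 alternatives (adjusted p 8.39e-08 to 0.0418). Abcb1b (chromosome 5, 8798147 to 8866315, plus strand) stood at 7.28, 9.85 and 11.6 CPM in LSK and 12.7, 4.98 and 10.3 CPM in ESC-derived replicates 1 to 3. The groups overlapped fully, and the log2 fold change was -0.04 ± 0.44 (adjusted p = 0.96). Abcb1a (chromosome 5, 8660077 to 8748575, plus strand) stood at 0.124, 0.919 and 1.61 CPM in LSK and 0, 0.992 and 1.415 CPM in ESC-derived replicates 1 to 3 (-0.14 ± 1.63, adjusted p = 0.962). These errors leave room for differences in either direction, and the sign of both changed without LSK replicate 3 (0.63 for Abcb1a and 0.12 for Abcb1b). Of the stretches of 50 bases in Abcb1a transcripts, 22.5% also occur in transcripts of other genes, chiefly Abcb1b, so reads of this pair can be split between them.

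Of the 5 sterol and phospholipid exporters, 2 could be tested, Abca1 and Abcg1, and both were called lower in ESC-derived cells. Abca1, which passes cholesterol and phospholipid to apolipoprotein A-I (ENSMUSG00000015243, chromosome 4, 53030787 to 53159895, minus strand), stood at 16.2, 13.7 and 12.5 CPM in LSK and 1.26, 1.61 and 0.380 CPM in ESC-derived replicates 1 to 3. All ESC-derived values were far under the LSK values, and the mean fell from 14.1 ± 1.905 to 1.08 ± 0.632 CPM (log2 fold change -3.71 ± 0.61, adjusted p = 0.00513, 1.83e-09 to 0.0253 over 15 alternatives). Abcg1, which moves cholesterol toward high-density lipoprotein (ENSMUSG00000024030, chromosome 17, 31057675 to 31117988, plus strand), stood at 54.8, 53.1 and 44.6 CPM in LSK and 30.75, 34.3 and 26.55 CPM in ESC-derived replicates 1 to 3. The groups did not overlap (-0.74 ± 0.18, adjusted p = 0.0217). The Abcg1 call was lost without LSK replicate 1 (adjusted p = 0.0706) and without LSK replicate 2 (adjusted p = 0.0979). Abcg4 and Abcg8 had 0 counts in all 6 libraries, and Abcg5 had 34 and 11 counts in ESC-derived replicates 1 and 2 and 0 elsewhere. Of 18 tested genes of sterol efflux and its regulation, 3 were called higher and 4 lower, beside 14.8% and 15.2% of all genes tested. Scarb1, a receptor for high-density lipoprotein, fell from 48.1 ± 4.58 to 11.3 ± 5.47 CPM (-2.09 ± 0.42), and Nceh1, a cholesteryl ester hydrolase, fell by 1.27 ± 0.23 on the log2 scale. Npc2, which hands on cholesterol in lysosomes, rose from 133.5 ± 13.3 to 218 ± 17.1 CPM (0.71 ± 0.12). Soat1, which esterifies cholesterol, rose by 1.13 ± 0.32 (adjusted p = 0.0371), a call lost in 8 of 15 alternatives, among them without any 1 of the LSK libraries, ESC-derived replicate 2 or ESC-derived replicate 3. Monocyte and macrophage markers summed to 731 to 789 CPM in LSK and 401 to 745 CPM in ESC-derived cells, with 1 of 12 higher and 1 lower, and their part was not tested.

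Exporters of organic anions and conjugates were mostly not called. Abcc1, which exports glutathione conjugates and leukotriene C4 (ENSMUSG00000023088, chromosome 16, 14361558 to 14475737, plus strand), stood at 24.25, 19.7 and 15.4 CPM in LSK and 8.06, 7.11 and 9.86 CPM in ESC-derived replicates 1 to 3. Every LSK library was above every ESC-derived library, and the log2 fold change was -1.24 ± 0.30 (adjusted p = 0.0199). The call was lost without LSK replicate 1 (adjusted p = 0.0763), LSK replicate 2 (0.0825) or ESC-derived replicate 2 (0.0543). Abcc4, an exporter of cyclic nucleotides and prostaglandins, averaged 4.60 ± 0.305 and 8.14 ± 2.34 CPM in the LSK and ESC-derived groups, with no overlap (0.82 ± 0.41, adjusted p = 0.184). Abcc5, another exporter of cyclic nucleotides, averaged 9.39 ± 2.545 and 13.6 ± 7.33 CPM, and ESC-derived replicate 3 was its highest library (22.0 CPM). Abcc10 averaged 1.25 ± 0.699 and 1.45 ± 0.567 CPM. Abcc3, an exporter of glucuronides, was even in LSK (1.30 to 1.60 CPM), and all of its 87 ESC-derived counts were in replicate 3. Without that library its log2 fold change was -9.06 (adjusted p = 0.0185), which rests on ESC-derived libraries with 0 counts and is no measure of size.

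Of 12 tested genes of leukotriene and prostaglandin synthesis, upstream of Abcc1 export, 2 were called higher and 4 lower, where 14.8% and 15.2% of all genes tested were called. Alox5ap, which presents arachidonate to 5-lipoxygenase, fell from 233 ± 14.6 to 13.1 ± 3.28 CPM (-4.15 ± 0.23), and Ltc4s, the leukotriene C4 synthase, fell from 24.3 ± 2.35 to 0.848 ± 0.465 CPM (-4.84 ± 0.56). Mgst2, a microsomal transferase that can also make leukotriene C4, rose from 12.4 ± 1.70 to 86.7 ± 7.06 CPM (2.80 ± 0.18). Lta4h, which makes leukotriene B4, rose by 0.54 ± 0.14 (adjusted p = 0.0256), a call that was lost with library totals only and without any 1 of the 3 LSK libraries. Of 14 tested genes of glutathione supply and use, 2 were called higher (Gsr, a reductase, 1.08 ± 0.14, and Ggct, 2.02 ± 0.38) and 8 lower, among them the transferases Gstm1 (-4.37 ± 0.48) and Gsto1 (-1.17 ± 0.13).

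In the mitochondrial and lysosomal group, Abcb9 rose, Abcb10 fell and Abcb6 and Abcb8 were not called. Abcb9, a lysosomal peptide transporter related to the antigen peptide transporters (ENSMUSG00000029408, chromosome 5, 124061530 to 124095798, minus strand), stood at 4.10, 3.20 and 2.05 CPM in LSK and 156, 114 and 151 CPM in ESC-derived replicates 1 to 3. All 3 ESC-derived libraries were far above all LSK libraries. The log2 fold change was 5.49 ± 0.32 (45.0-fold, adjusted p = 7.3e-05), the largest of the 29 tested members, and it was called in all 15 alternatives. All 16 T cell markers and all 12 NK and cytotoxic lymphocyte markers rose with it, as given above. The part of these cells was not tested. Abcb10, an inner membrane protein of mitochondria needed for haem synthesis (ENSMUSG00000031974, chromosome 8, 123952459 to 123983122, minus strand), stood at 6.89, 8.23 and 5.81 CPM in LSK and 0.761, 2.29 and 2.15 CPM in ESC-derived replicates 1 to 3. The groups did not overlap (-2.01 ± 0.60), but the adjusted p of 0.0433 was close to the threshold. The call was lost without LSK replicate 1, 2 or 3 (adjusted p = 0.107, 0.177 and 0.0856) and without ESC-derived replicate 2 or 3 (0.0612 and 0.0604), and also with no filter on low counts (0.0668). An antisense gene covers 10.3% of the exon bases of Abcb10, and its reads there cannot be told apart from those of Abcb10 in a library that does not mark strand. That gene had 1260 counts over the 6 libraries, while Abcb10 had 977 in LSK and 231 in ESC-derived cells. Erythroid markers, a setting of high haem synthesis, summed to 238 to 262 CPM in LSK and 101 to 632 CPM in ESC-derived cells; 0 of 8 tested were called, Alas2 had 0 counts in both groups, and their part was not tested.

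Abcb8 and Abcb6 averaged lower or were scattered. Abcb8, of the inner mitochondrial membrane, averaged 33.3 ± 0.81 and 21.8 ± 4.18 CPM in the LSK and ESC-derived groups, with no overlap (-0.61 ± 0.21, adjusted p = 0.0715), and it was called lower with DESeq2 (adjusted p = 0.0205), with library totals only (0.0325) and without ESC-derived replicate 3 (0.0496). Abcb6, a porphyrin transporter, stood at 0, 2.10 and 11.2 CPM in ESC-derived replicates 1 to 3, a range that spans the LSK values of 3.33 to 7.10 CPM. A transcript annotated on the same strand covers 55.2% of Abcb6 exon bases, so its reads are uncertain. Of 20 tested haem, iron-sulphur and mitochondrial partner genes, 2 were called higher and 3 lower, beside 14.8% and 15.2% of all genes tested. Cpox (1.17 ± 0.19), an enzyme of late haem synthesis, and Tmem14c (0.86 ± 0.15), which moves porphyrin in mitochondria, rose. Fech, which inserts iron into the porphyrin ring, fell by 1.73 ± 0.42 on the log2 scale (adjusted p = 0.022), a call lost without LSK replicate 1, LSK replicate 2 or ESC-derived replicate 2. Slc25a39, a mitochondrial carrier, fell by 0.51 ± 0.14, a call lost without LSK replicate 1 or 3 and without ESC-derived replicate 2 or 3.

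**Figure D2:**
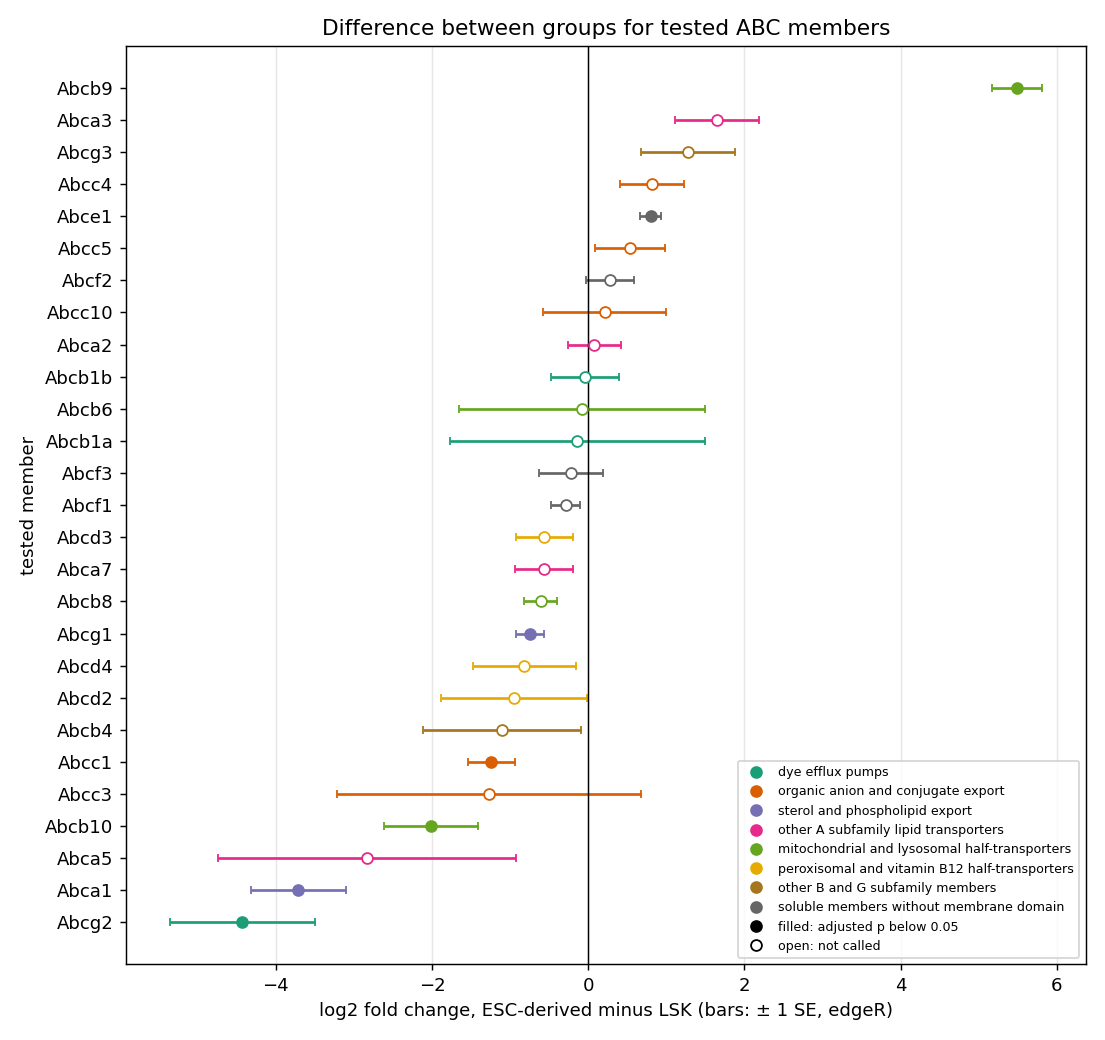
Log2 fold change (ESC-derived minus LSK) of 27 tested members with its SE as bars, ordered by size and coloured by role; filled points have an adjusted p below 0.05. Abcb9 lies at 5.49 and Abcg2 at -4.43, and 18 of the 27 points lie below 0.

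Close relatives of Abcb9 are Tap1 and Tap2, which carry peptides for loading onto MHC class I molecules and belong to subfamily B under another symbol, outside the rule for members. Tap1 stood at 53.9, 74.9 and 73.4 CPM in LSK and 152, 143 and 203 CPM in ESC-derived replicates 1 to 3. The ESC-derived libraries were all above the LSK libraries, and Tap1 rose by 1.30 ± 0.20 (adjusted p = 0.00377). Tap2, with which Tap1 forms the transporter, averaged 98.4 ± 6.67 and 86.3 ± 20.6 CPM and overlapped (-0.19 ± 0.19, adjusted p = 0.523). Cftr, the chloride channel of subfamily C, had 0 counts in all 6 libraries. Of 13 genes of peptide supply and loading, 10 were called higher and 0 lower, beside 14.8% and 15.2% of all genes tested. The higher calls included Nlrc5, an activator of MHC class I genes (2.45 ± 0.14), and Psme2, a proteasome activator subunit, which rose from 199 ± 6.91 to 798 ± 88.9 CPM.

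Among the peroxisomal members and the vitamin B12 transporter Abcd4, those named here were not called. Abcd2, an importer of very long chain fatty acyl-CoA, averaged 2.085 ± 1.615 and 1.08 ± 0.146 CPM in the LSK and ESC-derived groups, which overlapped. Abcd3, an importer of branched fatty acids, averaged 9.32 ± 2.45 and 6.30 ± 0.576 CPM with no overlap (-0.56 ± 0.36, adjusted p = 0.301). Abcd4 averaged 5.91 ± 2.59 and 3.36 ± 2.21 CPM. Of 21 tested genes of peroxisome assembly and fatty acid oxidation, 2 were called higher and 2 lower, beside 14.8% and 15.2% of all genes tested. Scp2, a peroxisomal thiolase and lipid carrier, rose from 169 ± 17.4 to 357 ± 22.1 CPM (1.08 ± 0.12). Pex7, an import receptor, fell by 0.94 ± 0.22 on the log2 scale, a call lost without LSK replicate 1 or 2. Acot8, a thioesterase (0.63 ± 0.19, adjusted p = 0.048), and Pex6, an import ATPase (-1.02 ± 0.29, adjusted p = 0.0355), were called, but each call was lost without LSK replicate 1 or 2 and without ESC-derived replicate 2 or 3, that of Acot8 also without ESC-derived replicate 1 and that of Pex6 also without LSK replicate 3.

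The soluble members held 49.7% of the summed family CPM in LSK and 50.5% in ESC-derived cells, and Abce1 was the member called. Abce1, which splits ribosomes after termination (ENSMUSG00000058355, chromosome 8, 79683462 to 79711740, minus strand), stood at 42.6, 45.9 and 44.1 CPM in LSK and 78.2, 72.2 and 80.35 CPM in ESC-derived replicates 1 to 3. Both groups were tight and apart, and the mean rose from 44.2 ± 1.65 to 76.9 ± 4.21 CPM (0.80 ± 0.13, 1.74-fold, adjusted p = 0.00499, 5.79e-08 to 0.0368 over 15 alternatives). Abcf1, which binds the initiation factor eIF2, averaged 173 ± 41.05 and 141 ± 3.53 CPM (-0.29 ± 0.18, adjusted p = 0.275). With library totals only in place of TMM scaling, it was called lower (-0.53, adjusted p = 0.0413). Abcf2 averaged 88.7 ± 5.15 and 108 ± 51.2 CPM, and ESC-derived replicate 3, at 166 CPM, was far above the other libraries. Without that library the sign of its log2 fold change turned, from 0.28 to -0.18. Abcf3 averaged 19.2 ± 5.35 and 16.4 ± 8.04 CPM. Of 14 tested genes of ribosome recycling and translation control, 5 were called higher and 3 lower, beside 14.8% and 15.2% of all genes tested. Eif2s1, the alpha subunit of eIF2, rose by 1.10 ± 0.14, and the termination factor Etf1 rose by 0.61 ± 0.13, a call lost without LSK replicate 2 and also when only library totals were used. The eIF2 kinase gene Eif2ak4 fell by 3.20 ± 0.85 on the log2 scale, a call lost without LSK replicate 2 or 3 and without ESC-derived replicate 1 or 2. Eif2s3x, the gamma subunit, fell by 0.77 ± 0.21, a call lost without any 1 of the LSK libraries, ESC-derived replicate 2 or ESC-derived replicate 3.

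Other lipid transporters of subfamily A and the remaining members were not called. Abca2, of lysosomes, averaged 19.98 ± 1.61 and 21.1 ± 8.25 CPM in the LSK and ESC-derived groups (0.08 ± 0.34). Abca7, a lipid transporter of macrophages and brain, averaged 18.8 ± 7.26 and 12.7 ± 2.885 CPM. Abca3, which loads surfactant lipid in the lung, stood at 2.23, 1.49 and 3.505 CPM in LSK and 7.97, 9.565 and 5.175 CPM in ESC-derived replicates 1 to 3. These groups did not overlap, the log2 fold change was 1.65 ± 0.54, and the adjusted p of 0.0585 missed the threshold. It passed without ESC-derived replicate 3 (adjusted p = 0.0492), with DESeq2 (0.0105), with limma-voom (0.0384) and with values divided by 4 (0.0465). A gene on the opposite strand covers 9.8% of Abca3 exon bases. That gene had 1272 counts over the 6 libraries, while Abca3 had 337 in LSK and 985 in ESC-derived cells. Abca5 averaged 0.74 ± 0.667 and 0.102 ± 0.177 CPM. Abcg3, a rodent relative of Abcg2, averaged 3.24 ± 1.39 and 7.86 ± 3.73 CPM and overlapped (1.28 ± 0.60, adjusted p = 0.161). Abcb4, which moves phosphatidylcholine into bile, averaged 2.16 ± 0.652 and 1.01 ± 1.10 CPM.

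The 21 members that were not tested were near or at 0. Of these, 13 had 0 counts in every library: Abca4, Abca6, Abca8b, Abca9, Abca12, Abca13, Abca14, Abca15, Abca16, Abcb11, Abcc12, Abcg4 and Abcg8. A fragment was often worth 4 counts, so 3 fragments, or 12 counts over the 3 libraries of a group, were taken as a floor. A group with 0 counts can have an expected count up to this floor. Abca8a, Abcb5, Abcc6 and Abcc9 were at or under that floor in both groups. Abca17 (20 counts), Abcc2 (28), Abcc8 (21) and Abcg5 (45) had more than 12 counts in the ESC-derived group. All of the ESC-derived counts of Abca17 were in replicate 1, and all of those of Abcc2 and Abcc8 were in replicate 2. Abcc8 and Abcc9, the regulatory subunits of ATP-sensitive potassium channels, each had 4 LSK counts, all in replicate 2.

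The order of members by level per exon length was similar at the top in both groups, apart from Abcb9 and Abcg2, among the members named. On this scale (TMM-scaled CPM per kb of exon, comparable between genes) Abcf1 and Abcf2 led in LSK at 39.3 ± 9.31 and 34.5 ± 2.005 and in ESC-derived cells at 32.1 ± 0.801 and 41.9 ± 19.9, and did not differ from each other beyond their spread in either group. Place 4 in LSK was held by Abce1 (7.36 ± 0.275), before Abcb8 (7.03 ± 0.171) and Abcg1 (6.97 ± 0.75), which were within their spread of each other, then Abcf3 (5.39 ± 1.505) and Abcg2 (5.10 ± 0.287). In ESC-derived cells Abcb9 stood at place 3 with 25.1 ± 4.07, against place 22 in LSK with 0.556 ± 0.184. Abcg2 stood at place 22 in ESC-derived cells with 0.235 ± 0.192, against place 8 in LSK. By this scale Abcg2 was above Abcb1b in LSK (5.10 against 1.20 ± 0.272) and below it in ESC-derived cells (0.235 against 1.17 ± 0.495).

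**Figure D3:**
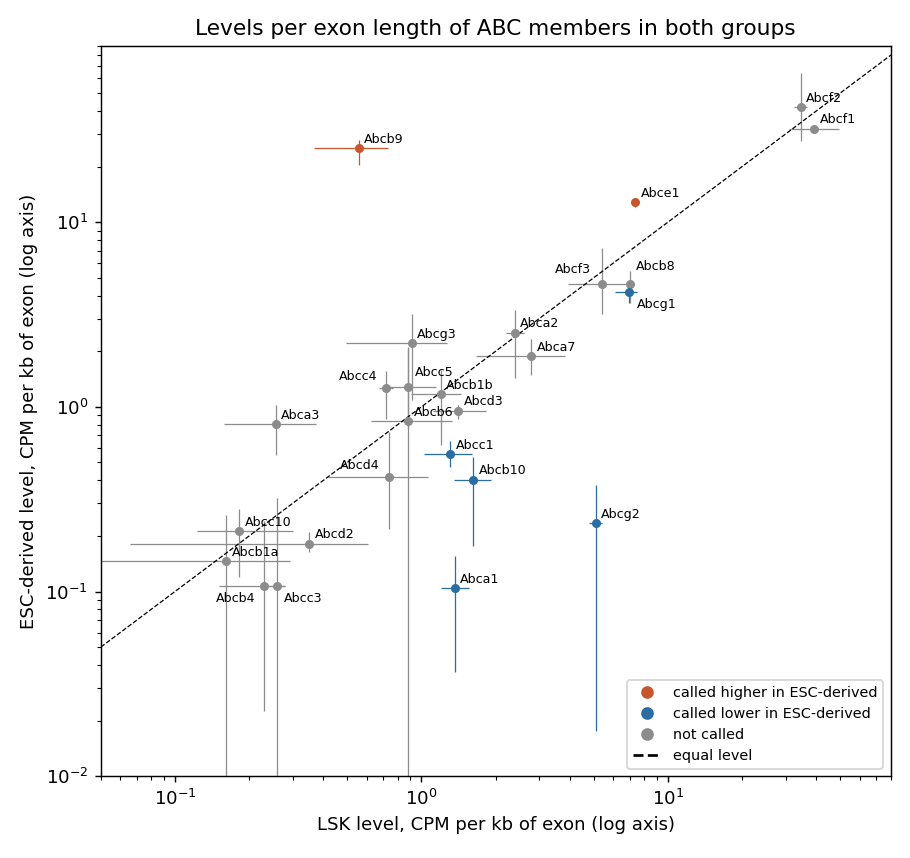
Mean level per kb of exon in LSK (x axis) and ESC-derived libraries (y axis), both as TMM-scaled CPM per kb on log axes, for members above 0.1 in both groups; bars run from the lowest to the highest library (cut at 0.01) and the dashed line marks equal levels. Abcb9 stands farthest above the line, at 0.556 and 25.1, and Abcg2 and Abca1 stand farthest below it.

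Of 14 tested genes that regulate efflux pump genes, 5 were called higher and 1 lower, where 14.8% and 15.2% of all genes tested were called. The higher calls of Hif1a and Pparg, named here after their values were seen, were each lost in 8 of 15 alternatives, among them without any 1 of the LSK libraries. Epas1, a hypoxia-inducible factor, rose from 0.171 ± 0.087 to 9.47 ± 2.41 CPM (5.77 ± 0.67), and Foxo1, a transcription factor of lymphocytes and other cells, rose from 14.9 ± 2.29 to 58.2 ± 20.5 CPM (1.96 ± 0.29). Foxo3, a relative of Foxo1 needed by blood stem cells, fell from 39.3 ± 11.1 to 6.38 ± 1.24 CPM (-2.62 ± 0.31).

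The calls of Abcb9, Abce1, Abcg2 and Abca1 held under every alternative that was run, while those of Abcb10, Abcc1 and Abcg1 did not. The log2 fold change of Abcb9 ran from 5.23 to 5.74 over the 15 alternatives, that of Abce1 from 0.55 to 0.84, that of Abca1 from -4.10 to -3.30 and that of Abcg2 from -5.24 to -3.89. Each of the 7 named members that were called kept its direction throughout.

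**Figure D4:**
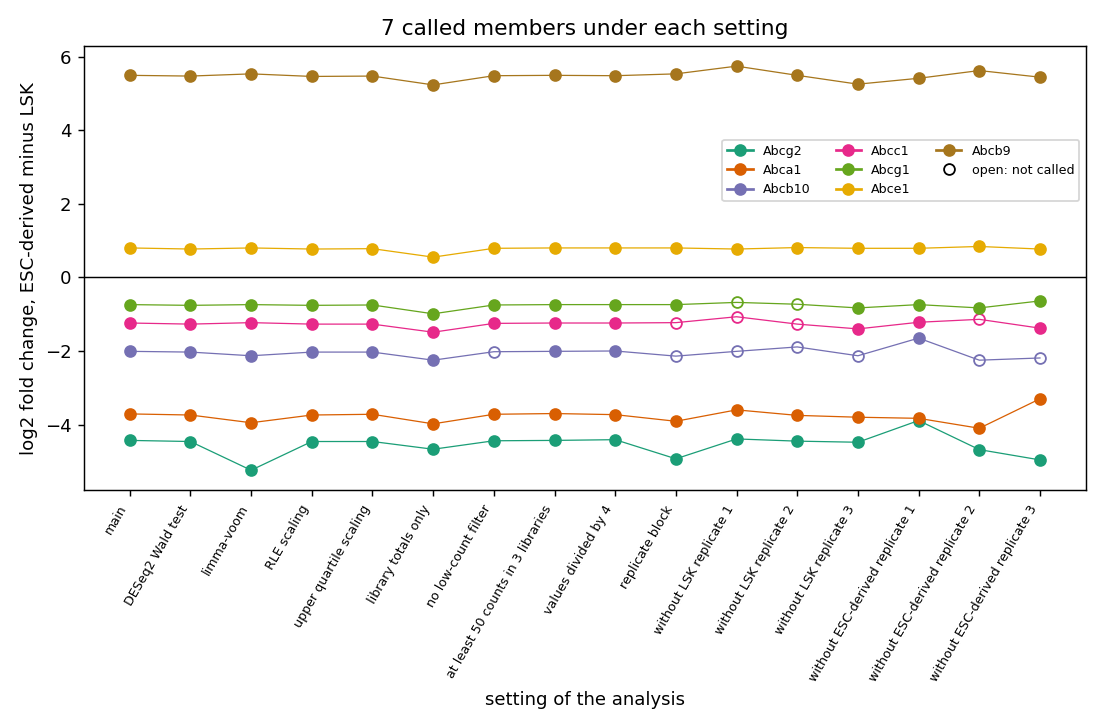
Log2 fold change (ESC-derived minus LSK) of 7 called members under the main analysis and each of the 15 alternatives on the x axis; filled points have an adjusted p below 0.05 and open points do not. Every line stays on its side of 0, and open points occur for Abcb10, Abcc1 and Abcg1.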

How the data were processed

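Bulk RNA was measured in 6 libraries, prepared, per the labels' protocols, with SMART-Seq v4 cDNA and Nextera XT tagging, which do not mark strand. HISAT, StringTie and the build mm10 are named in the submitters' processing notes; their versions and the annotation are not named there. Per the file headers and values, the authors deposited estimated counts, whole numbers that were not normalized. Multiples of 4 made up 40.1 to 47.2% of values from 1 to 20, so counts overstate fragments, and intervals and floors cover counting error only. The header names the 6 value columns in a single field, and columns were assigned from the order of names there. Kit counts go with the order of the groups, but cannot tell the replicates within a group apart. Of 55401 gene IDs, 55141 matched GENCODE M21, which gave symbols and positions. The values were used as they stand.

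Genes passing filterByExpr were scaled with TMM and tested over the whole table with the quasi-likelihood test of edgeR 4.0.16 in R 4.3.3, two-sided with a robust fit, and p-values were adjusted by Benjamini-Hochberg (threshold 0.05). Differences are ESC-derived minus LSK, and replicate numbers were not a block. CPM used TMM-scaled libraries, and levels per kb divided by the union of exons. SEs came from the F statistic. Alternatives were DESeq2 1.42.0, limma-voom (limma 3.58.1), scaling by RLE, by upper quartile or by library totals only, omitting the low-count filter or requiring at least 50 counts in 3 libraries, dividing values by 4, a replicate block, and leaving out each library in turn. On simulated counts for this comparison (15514 genes in the fit, 50 changed per fold size), recovery was 10% at 2-fold, 46% at 4-fold, 66% at 8-fold and 80% at 16-fold. The simulation changed few genes, whereas 30.0% of genes were called in the data. Its adjusted threshold was thus stricter, so these recoveries may understate those in the data. Changed genes were drawn only from those with a mean of at least 50 counts per library. Tested members below that, such as Abca5 and Abcb1a, are not covered by these recoveries. The tested members are named, except 2 whose results are not reported here, called members and the dye pumps per library, and up to 2 higher and 2 lower genes of each partner list by adjusted p. Members and lists were chosen with earlier results of these data known.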

Additional observations from a re-analysis of the deposited data

How the results depend on the processing

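Abcb9 and Abce1 were called higher under each of the 15 alternatives, and Abca3 was also called higher under 4 of them. The 6 members called lower became 3 with the replicate number as a replicate block, under which the calls of Abcb10 (adjusted p = 0.0971) and Abcc1 (adjusted p = 0.0729) were among those lost, and ranged from 2 to 7 when a library was left out, with 2 without LSK replicate 1 or 2 and 3 without ESC-derived replicate 2. Whether the replicate numbers pair the samples cannot be decided from deviations within groups of 3 libraries. Same-numbered libraries had correlations of 0.00426, 0.0537 and 0.00625 of their deviations, and differently numbered ones ran from -0.0441 to 0.0222. LSK replicate 1 and ESC-derived replicate 3 correlated best with each other, and the remaining libraries with their own number. Of the partner genes, 32 were called higher and 25 lower, and those higher were 21 with library totals only. With a library left out, 21 to 29 were higher and 12 to 23 lower. Without LSK replicate 2 they were 21 higher and 12 lower. Over all genes, 4861 calls became 3220 with the block and 2716 without LSK replicate 2. With library totals only, 36.5% of calls were higher, against 49.3%, and the median of all genes moved from -0.07 to -0.32.

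Signs turned only for members that were not called. Abca2 turned to -0.03 with limma-voom, -0.18 with library totals only and -0.0028 with the block, and Abcc10 to -0.05 with library totals only. When a library was left out, log2 fold changes ranged from -0.18 to 0.36 for Abca2, -0.83 to 0.63 for Abcb1a, -0.33 to 0.26 for Abcb1b, -2.15 to 0.51 for Abcb6, -0.043 to 0.75 for Abcc10 and -0.18 to 0.51 for Abcf2. The causes were not tested. At 0.5 or 2 CPM in place of 1, members detected numbered 26 or 21 in LSK and 22 or 18 in ESC-derived cells. Depth limits members under about 1 CPM, such as Abcb1a and Abca5, whose values rest on few fragments.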
